A study of Mus musculus with 8 samples.

Results

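The CXC chemokines are small secreted signalling proteins named for the single residue between the first pair of conserved cysteines, and they steer leukocytes along concentration gradients by binding G protein-coupled receptors. Microglia, the resident macrophages of the brain, are known as a source of several of them when they sense bacterial products. Here 10 genes of the family were followed: Cxcl1, Cxcl2, Cxcl3, Cxcl5, Cxcl9, Cxcl10, Cxcl11, Cxcl12, Cxcl16 and Pf4. They were found by their Ensembl identifiers, through GENCODE vM21 symbols, among the 52636 identifiers of the count table. All 10 were in it, and 8 of them were among the 13847 genes with enough counts to be tested.

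Both groups were primary microglia of WT C57BL/6 mice (C57BL/6N pups in the study's methods), shaken off from mixed glial cultures of neonatal brains and kept in serum-containing medium with recombinant murine CSF-1. One group received 5 µg/ml LPS, a bacterial lipopolysaccharide sensed by Toll-like receptor 4, and the other received vehicle, each for 24 h. Each group had 4 libraries labelled as biological replicates 1 to 4, and the labels do not say which animals or cultures they came from, so p-values measure the spread between these libraries. The cells are a culture model: they had been grown on a layer of astrocytes and were then kept without it.

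The members fall into groups with different receptors and targets. Cxcl1, Cxcl2, Cxcl3 and Cxcl5 carry a glutamate-leucine-arginine motif ahead of their first cysteine and attract neutrophils through Cxcr2. Cxcl9, Cxcl10 and Cxcl11 are interferon-inducible and attract activated T cells and natural killer cells through Cxcr3. Cxcl12 acts on Cxcr4 and on the scavenging receptor Ackr3 and is mostly made by stromal cells, Cxcl16 is made as a membrane-anchored ligand of Cxcr6, and Pf4, platelet factor 4, is a platelet granule chemokine that many macrophages also transcribe.

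In the GRCm38 annotation, 8 of the members lie on chromosome 5. Cxcl5 (90759360 to 90761624), Pf4 (90772435 to 90773383), Cxcl3 (90786103 to 90789600), Cxcl1 (90891241 to 90893115) and Cxcl2 (90903871 to 90905938) are on the plus strand within 146.579 kb. Cxcl9 (92321347 to 92328079), Cxcl10 (92346638 to 92348889) and Cxcl11 (92359544 to 92365485) are on the minus strand within 44.139 kb, and 1415.408 kb separate Cxcl2 from Cxcl9. Cxcl12 is on chromosome 6 (117168535 to 117181367, plus strand) and Cxcl16 on chromosome 11 (70453983 to 70459984, minus strand). The annotation classes Cxcl11 as a polymorphic pseudogene, and C57BL/6 mice are known to carry a frameshift in it, so a Cxcl11 count is a count of its transcript and not of an intact chemokine.

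Promoter sequences, from 250 bases before to 50 bases after the start site, were held by the RefSeq table (GRCm38.p6) for 7 of the 10 members and not for Cxcl5, Cxcl11 and Cxcl16. They were searched on both strands for a kappaB motif (GGGA, any 2 bases and TTCC, bound by NF-kB), the core of an interferon-stimulated response element (GAAA, any 2 bases and GAAA), a gamma-interferon activated site (TTCNNNGAA) and a TATA box (TATAAA). Those of the 3 neutrophil-attracting members, of Cxcl10 and of Pf4 are shown because the first 4 hold the kappaB letters and Pf4 holds none of the motifs. Capitals mark the matches, and each sequence reads 5′ to 3′ on the strand of its gene. The windows are chr5:90890995-90891294 (plus) for Cxcl1, chr5:90903649-90903948 (plus) for Cxcl2, chr5:90785851-90786150 (plus) for Cxcl3, chr5:92348840-92349139 (minus) for Cxcl10 and chr5:90772185-90772484 (plus) for Pf4.
Cxcl1: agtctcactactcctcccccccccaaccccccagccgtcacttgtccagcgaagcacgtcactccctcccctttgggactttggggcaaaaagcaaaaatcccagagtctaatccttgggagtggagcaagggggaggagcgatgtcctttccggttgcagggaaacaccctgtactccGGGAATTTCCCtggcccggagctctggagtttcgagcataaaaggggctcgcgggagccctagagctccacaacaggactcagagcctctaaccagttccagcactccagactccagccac
Cxcl2: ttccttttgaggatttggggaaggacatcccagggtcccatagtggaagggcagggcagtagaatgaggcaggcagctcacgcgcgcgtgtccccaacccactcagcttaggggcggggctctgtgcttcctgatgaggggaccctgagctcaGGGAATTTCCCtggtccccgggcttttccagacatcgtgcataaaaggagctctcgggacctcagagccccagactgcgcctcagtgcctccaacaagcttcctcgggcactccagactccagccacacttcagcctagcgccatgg
Cxcl3: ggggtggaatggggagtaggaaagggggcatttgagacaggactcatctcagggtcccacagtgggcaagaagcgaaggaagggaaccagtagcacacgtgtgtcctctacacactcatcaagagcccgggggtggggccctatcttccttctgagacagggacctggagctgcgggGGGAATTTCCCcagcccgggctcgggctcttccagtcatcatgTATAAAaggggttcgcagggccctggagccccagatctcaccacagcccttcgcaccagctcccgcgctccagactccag
Cxcl10: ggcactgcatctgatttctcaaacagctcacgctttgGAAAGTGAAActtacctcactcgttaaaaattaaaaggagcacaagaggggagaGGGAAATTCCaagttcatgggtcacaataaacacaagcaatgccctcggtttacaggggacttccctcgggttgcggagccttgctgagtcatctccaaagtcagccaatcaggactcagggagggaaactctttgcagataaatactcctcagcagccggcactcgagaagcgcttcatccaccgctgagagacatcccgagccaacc
Pf4: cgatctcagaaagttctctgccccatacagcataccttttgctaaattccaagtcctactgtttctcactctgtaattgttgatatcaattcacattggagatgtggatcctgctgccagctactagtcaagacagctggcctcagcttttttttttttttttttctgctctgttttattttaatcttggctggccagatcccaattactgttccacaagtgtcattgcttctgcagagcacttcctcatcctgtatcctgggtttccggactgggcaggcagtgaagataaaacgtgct

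The same letters, GGGAATTTCC, stood at positions -71 to -62 from the start site of Cxcl1, -97 to -88 from that of Cxcl2 and -73 to -64 from that of Cxcl3. Positions are counted from the RefSeq start sites. These differ from the gene starts of the GENCODE annotation given above, most for Cxcl2 among these members, so the distances depend on the annotation. In these 3 promoters the overlapping match on the other strand, 1 base further on, extends the capitals to an 11-base run. In a global alignment of the windows, with gaps left out, the promoters of Cxcl1 and Cxcl2 were identical at 71.6% of aligned bases, those of Cxcl1 and Cxcl3 at 71.5% and those of Cxcl2 and Cxcl3 at 72.8%, while the other pairs among the 7 promoters ranged from 52.2% to 66.4%. Cxcl10 had the kappaB letters as GGGAAATTCC at -159 to -150 and was the only 1 of the 7 with the interferon-stimulated core, GAAAGTGAAA, at -213 to -204. The TATAAA letters were found in Cxcl3, from position -30, and in Cxcl9, from position -195. Among all 32851 promoters of the table the kappaB letters were present in 1.47%, the interferon-stimulated core in 3.44%, the gamma-interferon activated site in 8.30% and TATAAA in 13.6%. Of the 7 member promoters, 4, 1, 0 and 2 held them. A looser kappaB pattern (GGG, any 5 bases and CC) was present in 6 of the 7, but also in 50.8% of all promoters. These are matches of letters and not measured binding.

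**Figure D1:**
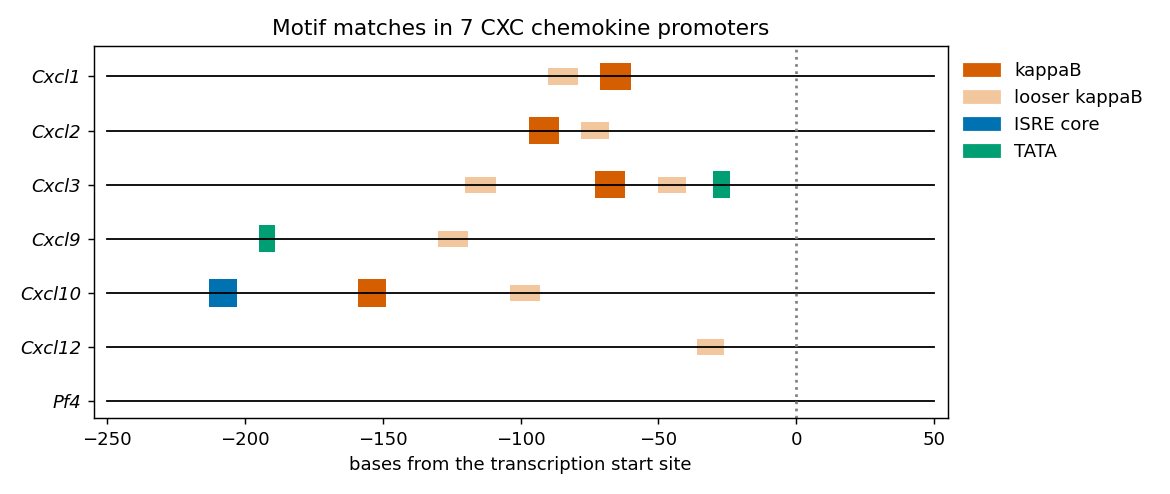
Motif matches in the 7 member promoters of the RefSeq table. The x axis is the distance from the start site in bases, each row is 1 promoter, and boxes show the matches on either strand of the kappaB motif (orange), its looser form (pale), the interferon-stimulated response element core (ISRE, blue) and TATAAA (green). The kappaB marks of Cxcl1, Cxcl2 and Cxcl3 sit within 100 bases of the start, and that of Cxcl10 lies at -159 to -150.

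The libraries held 20071921 to 30604447 counts, and no pair of them agreed within counting error (lowest chi-square per degree of freedom 6.98). Levels are given as CPM, counts scaled to library size after TMM, a correction for library composition. Microglial transcripts were abundant in every library (summed CPM of 10 markers 10575 to 13606 with vehicle and 4739 to 5178 with LPS), and 8 of the 10 markers fell and 2 did not pass the test. In bulk RNA, fewer cells that make a transcript cannot be told apart from less of it per cell.

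LPS was followed by a large rise of Cxcl1, Cxcl2 and Cxcl3 among the neutrophil-attracting members and of the interferon-inducible Cxcl9, Cxcl10 and Cxcl11, while Pf4 fell and Cxcl16 did not pass the test. Of the 8 tested members, these 6 rose, 1 fell (Pf4) and 1 (Cxcl16) did not pass (edgeR quasi-likelihood test, adjusted p under 0.05 over all tested genes). Of all tested genes, 64.1% were called by this test, 30.3% higher and 33.8% lower. Scaling by library totals alone lowers the median log2 change of all genes from -0.11 to -0.79 and the share of rises among calls from 47.2% to 19.0%, and the same 6 members rose under it. Each of the 6 rose by more than 5 on the log2 scale, as did 1.72% of the tested genes. Cxcl1 and Cxcl11 passed the filter on low counts through the LPS libraries, having exceeded its limit of 0.443 CPM in 1 vehicle library each, so they could hardly have been tested without rising.

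**Figure D2:**
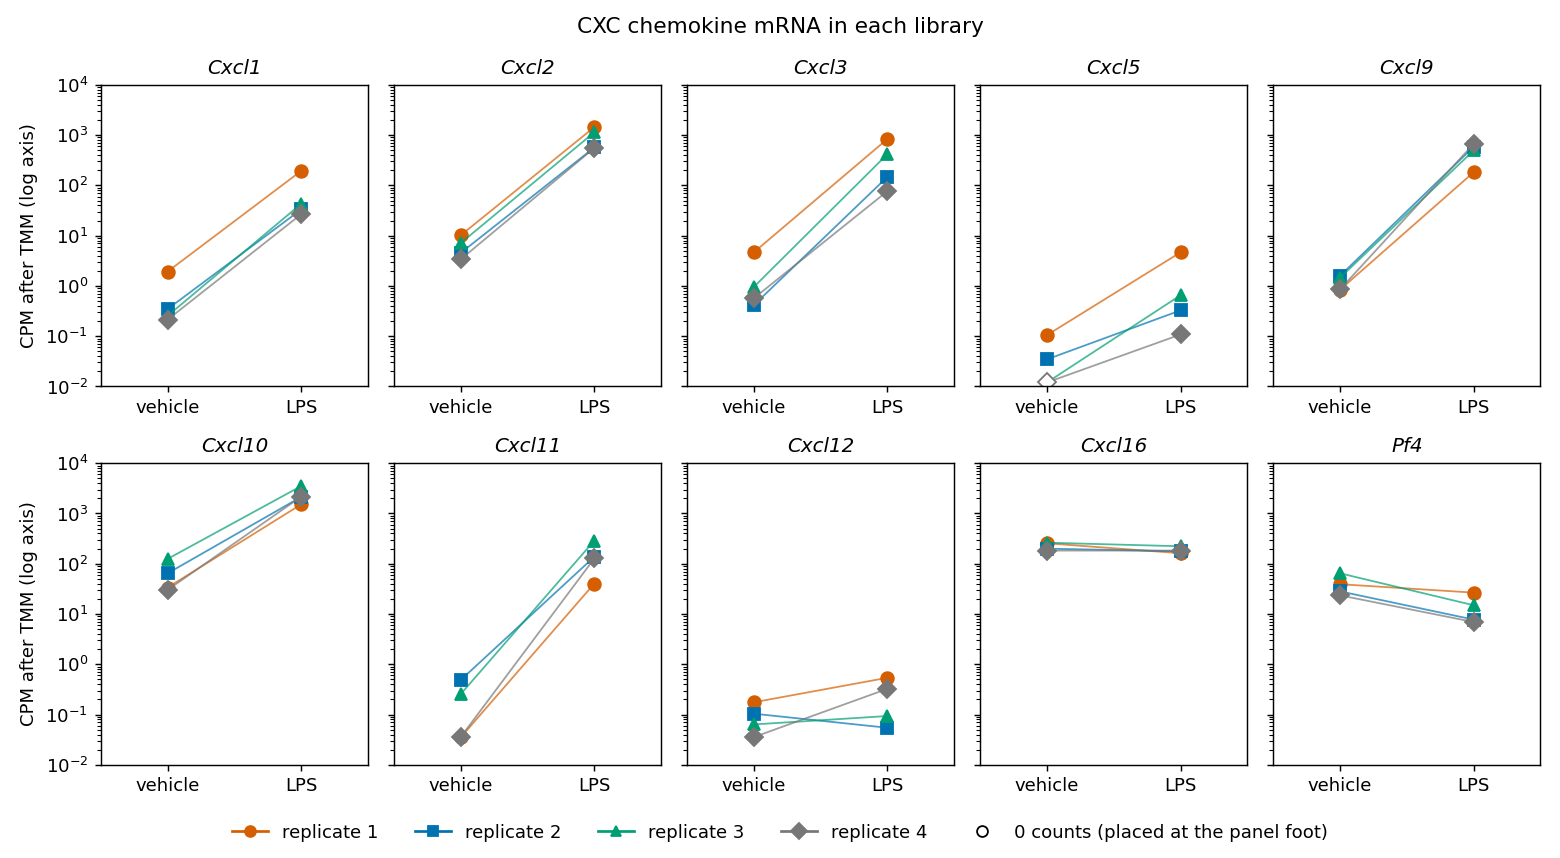
CPM of the 10 CXC chemokines in each library, on a log axis shared by all panels. Lines join vehicle and LPS libraries of the same replicate number, and open symbols at the foot of a panel are counts of 0. Cxcl1, Cxcl2, Cxcl3, Cxcl9, Cxcl10 and Cxcl11 lie higher in all 4 LPS libraries than in any vehicle library, Cxcl16 and Pf4 overlap, and Cxcl5 and Cxcl12 stay low.

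Among the neutrophil-attracting members, Cxcl2, which macrophages release early after contact with bacteria, was the most abundant. It measured 10.2, 4.53, 7.10 and 3.37 CPM in vehicle replicates 1 to 4 and 1449, 569, 1143 and 556 CPM in LPS replicates 1 to 4. The groups did not overlap, as for 28.7% of all tested genes in this direction, and replicates 1 and 3 were the higher ones in both groups. The rise was 148-fold (log2 change 7.20, SE 0.52, n = 4 per group, edgeR adjusted p = 2.69e-06).

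Cxcl1, the mouse counterpart of the growth-regulated oncogene chemokines, measured 1.93, 0.346, 0.254 and 0.213 CPM with vehicle and 195, 33.3, 43.1 and 26.8 CPM with LPS. Replicate 1 stood far above the other 3 in both groups, and the lowest LPS library was still above the highest vehicle library. The rise was 109-fold (log2 change 6.77, SE 0.94, edgeR adjusted p = 1.73e-04). The log2 change was 5.66 without LPS replicate 1 and 8.13 without vehicle replicate 1, and it remained past the test in each case.

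Cxcl3, a close relative of Cxcl2, measured 4.66, 0.415, 0.952 and 0.568 CPM with vehicle and 842, 149, 420 and 77.0 CPM with LPS. Replicate 1 was again the highest in both groups, with an 11.2-fold range among vehicle and a 10.9-fold range among LPS libraries, and the groups did not overlap. The rise was 226-fold (log2 change 7.82, SE 1.08, edgeR adjusted p = 1.58e-04), with a log2 change of 7.04 without LPS replicate 1 and of 9.19 without vehicle replicate 1. Cxcl2 and Cxcl3 share 50-base stretches (5.84% of those of Cxcl2 and 4.29% of those of Cxcl3, the latter including repeats found in many genes), the read length of these libraries. Only uniquely aligned reads were counted, so reads from such stretches are missing from either gene.

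Cxcl5, which epithelial cells and platelets also make, stayed close to the limit of detection. It had 3, 1, 0 and 0 counts in vehicle replicates 1 to 4 and 78, 6, 14 and 2 counts in LPS replicates 1 to 4, where a count of 0 allows up to 3. LPS replicate 1 held most of the counts, and the lowest LPS library (0.108 CPM) was level with the highest vehicle library (0.105 CPM). The mean difference was 1.40 CPM (exact permutation over libraries, two-sided, p = 0.0286, which is the lowest value possible with 4 against 4, and 0.0571 once adjusted for the 2 members under the count filter), and it was 0.328 CPM without LPS replicate 1. Another 2 fits called it higher, edgeR without the filter on low counts (log2 change 5.14, SE 1.16, adjusted p = 0.00215) and DESeq2 (log2 change 5.45, SE 1.28, adjusted p = 7.28e-05), on 4 vehicle and 100 LPS counts in all.

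Cxcl10, the interferon-gamma-induced protein that is also induced by type I interferon, was the member with the highest level after LPS. It measured 33.5, 64.3, 124.5 and 30.1 CPM with vehicle and 1520, 2138, 3513 and 2163 CPM with LPS. Replicate 3 was the highest in both groups, and the groups were far apart. The rise was 37.0-fold (log2 change 5.21, SE 0.53, edgeR adjusted p = 2.40e-05), and the log2 change was 5.83 without vehicle replicate 3. Art3 on the opposite strand overlaps 5.91% of the exonic bases of Cxcl10, and its own mean level was 0.0685 CPM with vehicle and 1.45 CPM with LPS.

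Cxcl9, the monokine induced by interferon-gamma, measured 0.840, 1.59, 1.46 and 0.852 CPM with vehicle and 184, 589, 497 and 672 CPM with LPS. In contrast to Cxcl1 and Cxcl3, replicate 1 was not the highest library in either group, and no library of one group reached the other. It was clearly the lowest with LPS, and with vehicle it was level with replicate 4, at 24 counts each. The rise was 406-fold (log2 change 8.67, SE 0.50, edgeR adjusted p = 8.08e-07).

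Cxcl11 had the largest log2 change of the 8 tested members, except without vehicle replicate 1, when it was 9.14 and that of Cxcl3 9.19. It measured 0.0350, 0.484, 0.254 and 0.0355 CPM with vehicle, from 1, 14, 8 and 1 counts, and 40.3, 138, 289 and 127 CPM with LPS. Replicate 1 was the lowest of the LPS libraries and replicate 3 the highest, and all of them lay above the vehicle libraries. The rise was 709-fold (log2 change 9.47, SE 0.82, edgeR adjusted p = 8.55e-06), with a log2 change of 10.30 without vehicle replicate 2. With 24 vehicle counts in all, the size of this change rests on few reads. The opposite-strand gene Gm2673 overlaps 41.7% of its exonic bases and had 0 counts in every library.

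Cxcl16, which also serves macrophages as a scavenger receptor for oxidised lipoprotein, was already abundant without LPS. It measured 256, 199, 263 and 183 CPM with vehicle and 162, 177, 223 and 183 CPM with LPS. The groups overlapped, and the LPS to vehicle ratios of same-numbered libraries lay between 0.633 and 0.999. The log2 change was -0.28 (SE 0.15, edgeR adjusted p = 0.142). The call depends on the scaling, being -0.43 with upper quartile normalization (adjusted p = 0.0173) and -0.96 with library totals alone (adjusted p = 7.34e-05), settings that also lower the median of all genes. Zmynd15 on the opposite strand overlaps 18.3% of its exonic bases and fell from a mean of 17.6 to 7.47 CPM (log2 change -1.24, SE 0.17, edgeR adjusted p = 1.33e-04).

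Pf4 measured 39.2, 28.2, 64.6 and 23.5 CPM with vehicle and 26.6, 7.73, 14.9 and 6.92 CPM with LPS. LPS replicate 1 lay above vehicle replicate 4, so the groups overlapped, but every LPS library was below the vehicle library of its own number. The fall was by 1.47 on the log2 scale (SE 0.46, edgeR adjusted p = 0.0177), a vehicle mean 2.77 times the LPS mean. It did not pass the test without vehicle replicate 3 (log2 change -1.04, adjusted p = 0.0692).

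Some markers of other cells that transcribe Pf4 also differed between the groups. Of the 6 platelet or megakaryocyte markers 1 passed the filter, through the LPS libraries alone: Gp6, a collagen receptor, with at most 0.0350 CPM, a single count, with vehicle and 3.32 to 42.5 CPM with LPS. Their summed level was 0.484 to 1.96 CPM with vehicle and 3.95 to 43.1 CPM with LPS, most of the latter being Gp6. The means of Ppbp (0.663 to 0.167 CPM) and Gp1bb (0.173 to 0.0136 CPM) were lower with LPS. Those of Tubb1 (0.139 to 0.251 CPM), Itga2b and Gp9 were slightly higher. Itga2b and Gp9, which define the lineage, had at most 3 and 2 counts in any library. Of the 6 markers of border macrophages of the brain 4 were tested: 2 fell, among them the mannose receptor Mrc1 (650 to 38.9 CPM), 1 rose and 1, Folr2, did not pass (adjusted p = 0.129, and 0.00218 with the replicate block), and Lyve1 had at most 1 count. Their sum was 565 to 1031 CPM with vehicle and 61.9 to 85.1 CPM with LPS. The part of these cells in the Pf4 result was not tested.

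Cxcl12 was barely detected, with 5, 3, 2 and 1 counts in vehicle and 9, 1, 2 and 6 counts in LPS libraries. The groups overlapped, and the difference of 0.158 CPM did not pass (two-sided exact permutation test p = 0.286). With 11 vehicle and 18 LPS counts in all, a small change of this gene was not detectable at this depth.

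**Figure D3:**
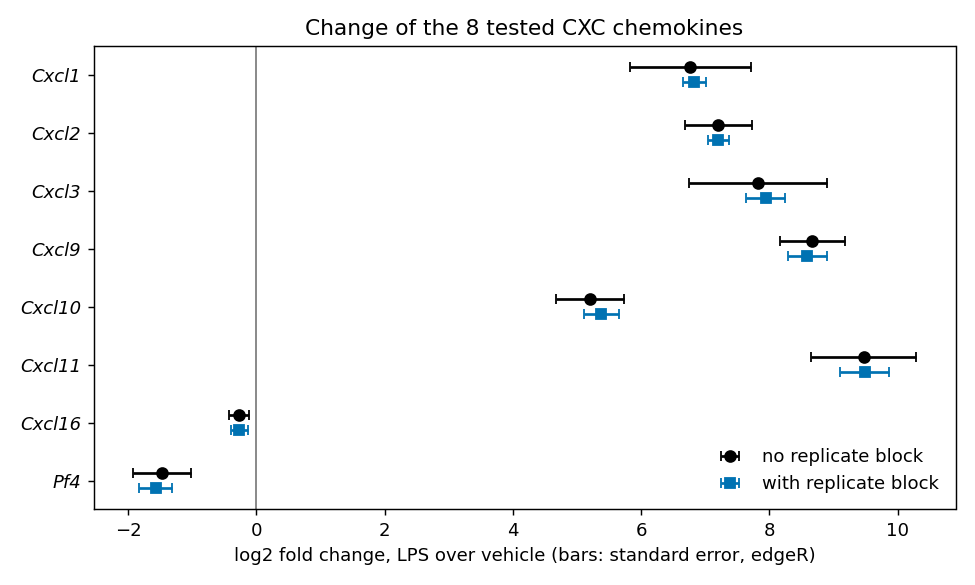
Log2 fold change, LPS over vehicle, of the 8 tested CXC chemokines by edgeR, with bars of 1 standard error, fitted without (black circles) and with (blue squares) the replicate number as a block. The 6 members on the right lie above 5 in both fits, and the bars of Cxcl1 shrink most with the block, from 0.94 to 0.18.

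For Cxcl1 and Cxcl2, the spread among replicates was largely shared by vehicle and LPS libraries of the same number. The fold of Cxcl1 within same-numbered libraries was 101, 96.2, 170 and 126, although its LPS level ranged 7.27-fold. That of Cxcl2 was 143, 126, 161 and 165, and that of Cxcl3 was 181, 358, 442 and 136. Cxcl1 and Cxcl2 thus rose by similar factors in all 4 pairs from different starting levels. With vehicle, Cxcl1 had 55, 10, 8 and 6 counts and Cxcl3 had 133, 12, 30 and 16 counts in replicates 1 to 4. The folds of Cxcl1 in replicates 2 to 4 therefore rest on few vehicle reads.

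For Cxcl9 the folds were 219, 370, 341 and 789 and for Cxcl10 they were 45.4, 33.2, 28.2 and 71.8. Replicate 4 had the largest fold for both. For Cxcl11 folds of 284 and 1137 could be given for replicates 2 and 3, since the other vehicle libraries had 1 count. Pf4 fell to ratios of 0.680, 0.274, 0.231 and 0.295 of the vehicle level, least in replicate 1.

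With the number as a block in the edgeR fit, the standard error of the log2 change was 5.25 times smaller for Cxcl1, 3.53 times for Cxcl3, 3.23 times for Cxcl2, 2.15 times for Cxcl11, 2.00 times for Cxcl10, 1.81 times for Pf4, 1.65 times for Cxcl9 and 1.16 times for Cxcl16. No member changed its call, so 6 rose and 1 fell as before, where 65.3% of all tested genes were called with the block, 29.7% higher and 35.6% lower. Replicate 1 was the highest library of both groups for Cxcl1, Cxcl2, Cxcl3, Cxcl5 and Cxcl12, as for 8.61% of all tested genes. Cxcl9 and Cxcl11 were lowest in replicate 1 of both groups, as 12.9% of tested genes were. With vehicle this rests on near ties of replicates 1 and 4, at 24 counts each for Cxcl9 and 1 count each for Cxcl11. Cxcl10 and Cxcl16 were highest in replicate 3 of both groups, as 13.9% were. These orders were chosen for description after their values were seen.

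**Figure D4:**
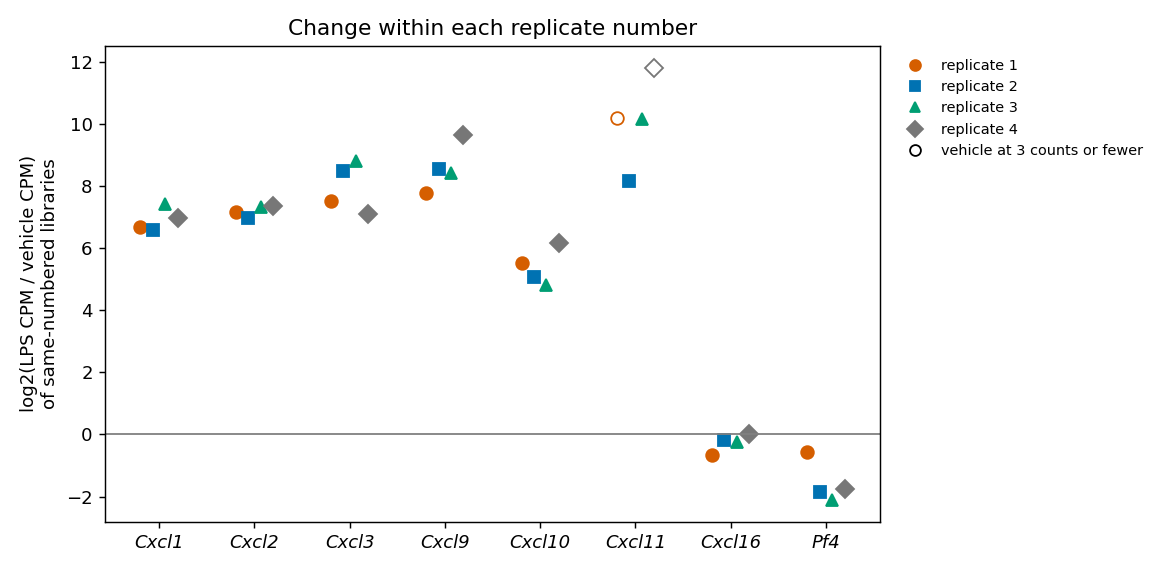
Log2 ratio of LPS to vehicle CPM within each pair of same-numbered libraries, for the 8 tested members. Symbols are the replicate numbers 1 to 4, and open symbols have a vehicle library at 3 counts or fewer. Cxcl1 and Cxcl2 points lie close together, and Pf4 points are all below 0.

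To compare levels between genes, CPM was divided by the length in kb of the longest principal transcript of each gene. With vehicle, Cxcl16 led at 83.4 ± 14.8 (SD, n = 4) CPM per kb, followed by Pf4 at 66.1 ± 31.2 and Cxcl10 at 57.7 ± 40.0. These 3 overlapped with their neighbours, and all of them lay apart from Cxcl2 at 5.67 ± 2.71. The remaining members followed from Cxcl3 (1.62) through Cxcl1 (0.718), Cxcl9 (0.410), Cxcl11 (0.128) and Cxcl12 (0.0302) to Cxcl5 (0.0222), each overlapping with the next.

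With LPS the order changed. Cxcl10 led at 2133 ± 768 CPM per kb and lay apart from Cxcl2 at 838 ± 398. Cxcl3 (366), Cxcl9 (168), Cxcl11 (93.9), Cxcl1 (78.2) and Cxcl16 (68.9) each overlapped with the next, and Cxcl16 lay apart from Pf4 (23.9), which lay apart from Cxcl5 (0.914). Cxcl5 and Cxcl12 (0.0807) overlapped. Dividing by all annotated exonic bases instead put Cxcl9 in place 3, ahead of Cxcl3, and Cxcl11 in place 7, behind Cxcl16 and Cxcl1.

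Summed over the 10 members, their counts made up 0.0318% to 0.0557% of a vehicle library and 0.310% to 0.430% of an LPS library. Of the summed CPM per kb, Cxcl12, Cxcl16 and Pf4 together held 62.9% to 77.5% with vehicle and 2.09% to 2.68% with LPS. The neutrophil-attracting members held 7.60%, 2.62%, 2.31% and 2.74% with vehicle and 59.7%, 23.0%, 28.9% and 20.3% with LPS in replicates 1 to 4. The interferon-inducible members held 14.9%, 32.0%, 34.8% and 19.97% with vehicle and 37.7%, 74.4%, 69.1% and 77.0% with LPS. Replicate 1 was thus the 1 LPS library in which the neutrophil-attracting members outweighed the interferon-inducible ones. Per kb, Cxcl3 was 13.04 times Cxcl9 in that library and 0.717, 2.40 and 0.326 times Cxcl9 in LPS replicates 2 to 4. With all exonic bases as the length these ratios were 3.95, 0.217, 0.729 and 0.0988, so that of replicate 3 turned direction, while the neutrophil-attracting members still held 55.6% of LPS replicate 1.

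**Figure D5:**
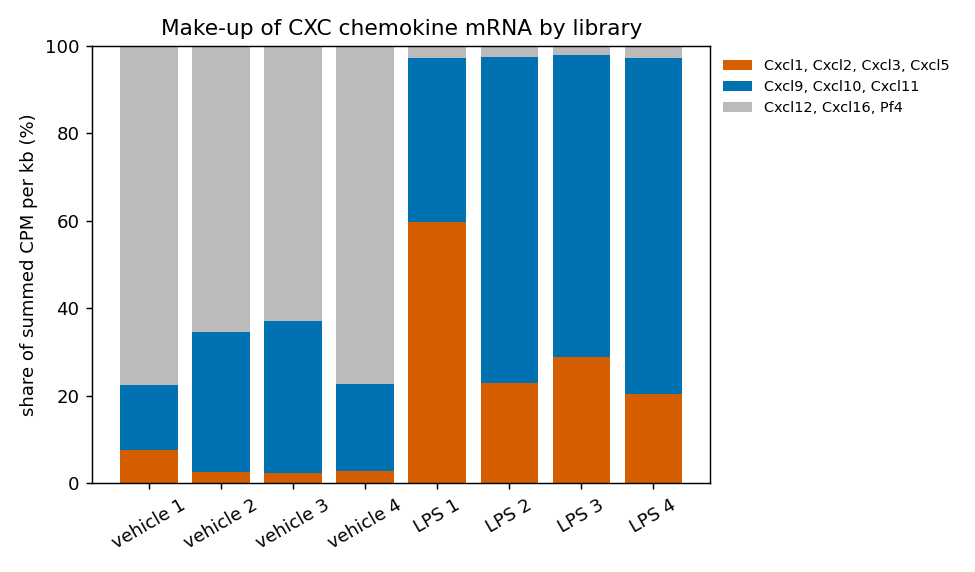
Share of the summed CPM per kb of the 10 members held by 3 groups of them in each library, in percent. The grey part (Cxcl12, Cxcl16 and Pf4) falls from at least 62.9% in vehicle to at most 2.68% in LPS libraries, and the orange part (Cxcl1, Cxcl2, Cxcl3 and Cxcl5) reaches 59.7% in LPS replicate 1.

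Whether related members changed by different factors was tested on the log2 ratio of their counts within a library, which does not depend on the scaling. The test covered 4 pairs with over 3 counts in every library. The ratio of Cxcl9 to Cxcl10 rose in 4 of 4 same-numbered pairs, by 2.27 to 3.59, from -5.55 ± 0.58 to -2.35 ± 0.68 (SD, n = 4, difference 3.20). By exact permutation (two-sided) p was 0.0286, the lowest possible value, and 0.114 with Benjamini-Hochberg adjustment for the 4 pairs. The ratio of Cxcl1 to Cxcl3 changed by -1.05 (exact permutation p = 0.0571, adjusted 0.114), that of Cxcl2 to Cxcl3 by -0.76 (p = 0.286, adjusted 0.381) and that of Cxcl1 to Cxcl2 by -0.30 (p = 0.629, adjusted 0.629). None of the 4 passed after adjustment, and the last changed sign to 0.14 without vehicle replicate 1. The lowest possible p, when a single pair reaches it, becomes 0.114 after adjustment for 4 pairs. The Cxcl9 to Cxcl10 ratio alone therefore could not have passed, and the adjusted test does not decide whether it changed.

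Among 5 other CXC ligands, 2 were tested and both fell. Cxcl14, a constitutively made chemokine of epithelia and brain, fell from 53.5 ± 10.5 to 5.42 ± 1.40 CPM (SD, n = 4, log2 change -3.31, SE 0.22, edgeR adjusted p = 1.76e-06). Cxcl13, which draws B cells into follicles, fell by 2.83 on the log2 scale (SE 0.56, adjusted p = 0.00162). Ppbp, Cxcl15 and Cxcl17 were under the count filter, with at most 35, 1 and 0 counts in any library.

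Of the 8 receptors of the family 4 were tested, with 1 higher, 2 lower and 1 not called. Cxcr4, the receptor for Cxcl12, measured 130, 93.7, 98.4 and 97.9 CPM with vehicle and 1.14, 2.34, 1.68 and 2.76 CPM with LPS. The groups were far apart, with a fall by 5.72 on the log2 scale (SE 0.25, edgeR adjusted p = 1.94e-07). Cxcr3, the receptor for Cxcl9 and Cxcl10, was low at 1.04 ± 0.309 CPM and fell to 0.443 ± 0.254 CPM (log2 change -1.21, adjusted p = 0.0377), a call that was lost on leaving out any 1 of 6 of the 8 libraries. Cxcr5, the receptor for Cxcl13, rose from 0.186 ± 0.0745 to 4.68 ± 2.76 CPM (log2 change 4.60, adjusted p = 5.09e-05), and it passed the filter through the LPS libraries alone, as Cxcr3 did through the vehicle libraries. Ackr3 did not pass (log2 change -0.43, adjusted p = 0.487). Cxcr2, the receptor for the neutrophil-attracting members, had at most 1 count in any library and Cxcr1 had none, and Cxcr6 and Ackr1 had at most 13 and 9.

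The NF-kB arm holds the transcription factor subunits that act on kappaB sites, their inhibitors and Cebpb. Of its 9 genes 8 rose and 1, Relb, did not pass (log2 change 0.28, edgeR adjusted p = 0.358). The median log2 change was 1.37, against -0.11 for all tested genes. The feedback inhibitor Tnfaip3 rose by 4.64 on the log2 scale (SE 0.15), the nuclear cofactor Nfkbiz by 3.60 (SE 0.15) and the inhibitor Nfkbia by 3.00 (SE 0.20), whereas the subunits Rel, Nfkb1 and Rela rose by 1.32, 0.82 and 0.57. With library totals alone 6 of the 9 genes rose and 0 fell.

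Of 12 genes of the interferon arm 11 were tested: 8 rose, 1 fell and 2 (Irf3 and Irf8) did not pass, with a median log2 change of 0.72, and with library totals alone 5 rose and 3 fell. Irf7, which amplifies type I interferon, rose by 3.54 on the log2 scale (SE 0.37, edgeR adjusted p = 3.03e-05). Ifngr1, a receptor chain for interferon-gamma, fell by 1.5 (SE 0.12, adjusted p = 4.90e-06). The transcript of the ligand Ifnb1 was under the filter, with at most 15 counts in a library.

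Several chemokine transcripts carry AU-rich elements that are bound by the decay factors Zfp36, Zfp36l1 and Zfp36l2. Of 5 genes that govern such decay 2 rose, 2 fell and 1 did not pass. Zfp36 rose by 2.69 on the log2 scale and the ribonuclease Zc3h12a by 3.74, while Zfp36l1 fell by 1.71 and Zfp36l2 fell by 3.15 (edgeR adjusted p between 6.44e-07 and 9.71e-05). Elavl1, which stabilises such transcripts, did not pass (log2 change 0.14, adjusted p = 0.288).

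Of 9 proteases that cut CXC chemokines, 7 were tested, with 3 higher, 2 lower and 2 not called. Adam10, which sheds Cxcl16 from the membrane, fell by 1.00 on the log2 scale (SE 0.12, edgeR adjusted p = 6.61e-05), and Adam17 by 0.58 (adjusted p = 0.00128). The collagenase Mmp8 rose by 5.60 (SE 0.80, adjusted p = 1.99e-04). Mmp9 and Mmp12 did not pass (log2 change 1.77, adjusted p = 0.128, and 1.31, adjusted p = 0.135), and Mmp12 passed with the replicate block (adjusted p = 0.00867). Mmp2, Mmp8, Mmp9, Mmp12 and Mmp14 were all highest in replicate 1 of both groups, like Cxcl1, Cxcl2, Cxcl3 and 8.61% of all tested genes. Adam10 was highest in vehicle replicate 1 and LPS replicate 3, and Adam17 in vehicle replicate 3 and LPS replicate 1. This order, too, was chosen for description after the values were seen.

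Neutrophils also make Mmp8 and Mmp9. None of 6 neutrophil markers passed the count filter. Their sum was 0.0346 to 0.107 CPM with vehicle and 0.325 to 2.99 CPM with LPS, most of it Camp, with Mpo at 0 and Ly6g at no more than 3 counts in every library. The summed astrocyte markers were 7.68 to 34.3 CPM with vehicle and 38.2 to 120 CPM with LPS, where the mean of Gja1 went from 0.873 to 48.6 CPM and the means of the other 5 were lower with LPS, Gfap and Aqp4 past the test. The fibroblast markers summed to 0.497 to 4.31 and 5.30 to 21.4 CPM. The mean of Dcn went from 0.136 to 8.90 CPM and that of Lum from 0.0396 to 0.545 CPM. Col1a1, Col1a2, Col3a1 and Pdgfrb had lower means with LPS. The sums were, for the endothelial markers, 31.1 to 73.5 and 163 to 254 CPM, with Cldn5 at 0, and for the markers of oligodendrocyte precursor cells, 18.3 to 82.1 and 1.87 to 20.8 CPM. The part of these cells in the rises of the members was not tested.

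The genes around the clusters did not all follow their members. Within 250 kb of the Cxcl5 to Cxcl2 cluster lay 9 other protein-coding genes, 1 of which was tested. This was Mthfd2l, 25.178 kb from Cxcl2, which did not pass (log2 change -0.79, edgeR adjusted p = 0.0598). Around the Cxcl9 to Cxcl11 cluster 10 of 12 were tested, with 6 higher, 2 lower and 2 not called, and 3 of the 6 (Art3, Ppef2 and U90926) had vehicle means of at most 0.0876 CPM and passed the filter through the LPS libraries. Next to Cxcl9, Sdad1 did not pass (log2 change -0.31, adjusted p = 0.126) and Naaa rose by 1.40 (adjusted p = 0.00612), and next to Cxcl11, Nup54 rose by 0.85 (adjusted p = 1.35e-04) and Scarb2 fell by 1.04 (adjusted p = 2.16e-04). Around Cxcl16 19 of 31 were tested, with 5 higher and 9 lower. Of all 30 tested neighbours 11 were higher (36.7%) and 11 lower. This is near the share of all tested genes, of which 30.3% were higher and 33.8% lower.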

How the data were processed

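RNA of primary microglia (8 libraries) was sequenced in single-end reads. The authors aligned reads to GRCm38 with GSNAP, counted uniquely aligned reads per Ensembl gene with HTSeqGenie and deposited raw counts, without normalization. Labels and methods name different kits and sequencers, and neither states whether strand was used, so reads of opposite-strand genes cannot be told apart. Symbols, positions and lengths came from GENCODE vM21, promoters from RefSeq.

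Counts were tested with edgeR 4.0.16 (TMM, filterByExpr with a minimum count of 10 and total of 15, quasi-likelihood, two-sided) in R 4.3.3, with Benjamini-Hochberg adjustment over all tested genes. Ratios and low members were tested by exact permutation over 70 splits (Python 3.11.15, scipy 1.17.1). The fits were tested on simulated data. Counting intervals and floors cover counting error only. Alternatives were DESeq2 1.42.0, other scalings, no filter, a replicate block, an adjusted p under 0.01 and leaving out libraries.

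Over 8010 genes, deviations from group means of same-numbered libraries correlated with r of 0.373, 0.196, 0.171 and 0.108, all over 0.1. Same-numbered libraries were therefore also read as pairs, in the folds within a number and in the replicate block. The main edgeR fit and the exact permutation tests used the group alone. The pairing comes from the data, since no source says that a number marks a shared culture. The crossed pairs of replicates 2 and 4 gave 0.146 and 0.137, both above the 0.108 of replicate 4 with its own number. Members, lists and named genes (all members, the list genes and at most 2 neighbours on each side of a cluster) were chosen with earlier results of these data known. The other transcript length and leaving out both libraries of number 1 were added after seeing the data. One gene of the interferon arm enters its counts and median and is not named here.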

Additional observations from a re-analysis of the deposited data

Results flagged for a closer look

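In 4 of 20 groups of 4 libraries (10 members, vehicle and LPS), the highest library's gap to the next exceeded Dixon's 95% critical value as a share of the group's range. The gaps and ranges were taken on CPM and not on the log scale, where a high value stands out less. Whether the flags hold on the log scale was not tested. For independent groups of normally distributed values chance gives about 1 in 20. The members were read in the same libraries, so the groups are not independent and the 4 cannot be weighed against that rate. All 4 flagged libraries were a replicate 1. For Cxcl1 they were vehicle replicate 1 at 1.93 CPM and LPS replicate 1 at 195 CPM. For Cxcl3 it was vehicle replicate 1 at 4.66 CPM, and for Cxcl5 LPS replicate 1 at 4.67 CPM. With both libraries of number 1 left out, the edgeR log2 change of Cxcl1 was 6.96 and that of Cxcl3 8.35, both past the test. Why replicate 1 stood apart was not tested.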

How the results depend on the processing

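The 6 members that rose did so in each of the 16 alternatives, and Cxcl5 made 7 with DESeq2 and with no filter. The log2 changes of the 6 ranged from 4.52 (Cxcl10, library totals alone) to 10.30 (Cxcl11, without vehicle replicate 2). The count of members that fell was 1 in the edgeR fit, 2 with upper quartile normalization and with library totals alone (Cxcl16 added), 0 at an adjusted p under 0.01 and 0 to 1 on leaving out 1 library. With library totals alone 1988 genes rose and 8457 fell, in place of 4191 and 4686. Under it the interferon arm had 5 higher and 3 lower genes and the NF-kB arm 6 higher and 0 lower. This scaling also gave a median log2 change of all genes of -0.79, in place of -0.11. Which scaling is nearer the true change was not tested. The receptor count of 2 lower became 1 with no filter, with both libraries of number 1 left out and at an adjusted p under 0.01, and was 1 to 2 on leaving out 1 library, Cxcr3 being lost. The Cxcl1 to Cxcl2 ratio changed by -0.67 to 0.14 on leaving out 1 library and was reversed without vehicle replicate 1. The cause was not tested. With the replicate block 4110 genes rose and 4934 fell, with 6 members higher and 1 lower, and of the members and list genes Mmp12 alone changed its call. DESeq2 gave 4827 and 4912. Depth limits Cxcl5 and Cxcl12, the vehicle level of Cxcl11, and that of Cxcl1 in replicates 2 to 4, to a few reads.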

Other observations

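Among the neighbours of the Cxcl9 to Cxcl11 cluster, U90926, a transcript 105.938 kb from Cxcl9, averaged 0.0876 CPM with vehicle and 633 CPM with LPS (n = 4 per group). Ppef2, 65.068 kb from Cxcl9, averaged 0.0168 CPM with vehicle and 17.8 CPM with LPS. The choice of both followed a look at their values, and their vehicle levels rest on a few counts.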
